A study of Mus musculus with 20 samples.

Results

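The cytosolic ribosomal protein genes were described across 20 RNA-seq libraries of germinal centre B cells sorted from mice. Their members were taken by gene symbol (Rpl, Rps or Rplp followed by a digit, without the S6 kinase genes Rps6k and without symbols marked -ps), which gave 85 of the 23382 symbols in the files. Of these, 43 encode proteins of the large subunit, 30 encode proteins of the small subunit and 3 (Rplp0, Rplp1, Rplp2) encode the stalk of the large subunit. A further 7 are paralogs of such genes (Rpl3l, Rpl10l, Rpl22l1, Rpl36al, Rpl39l, Rps27l, Rps4y2), and 2 carry a matching symbol without encoding a ribosomal protein (Rps19bp1, Rpl7l1). Mice of all 4 groups carried Cgamma1Cre +/-, a Cre recombinase driven from the C gamma 1 locus that is active in germinal centre B cells, and the control groups were WT for the Myd88L252P allele while the L252P groups were +/- for it. Centroblasts, the dividing dark zone cells, were sorted as B220+FAS+GL7+CXCR4+CD86-, and centrocytes, the light zone cells, as B220+FAS+GL7+CXCR4-CD86+. Each combination of genotype and sort had 5 libraries. The labels give no age or strain, and nothing in them ties a library to a mouse, so the spread behind each p-value is that between libraries and could be technical.

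Ribosomes are built from the proteins of both subunits in nearly equal numbers together with ribosomal RNA, and dividing cells devote a large part of their transcription and translation to them. The messengers of nearly all these proteins begin with a run of pyrimidines at the cap, the 5′ TOP sequence, through which their translation is held back by Larp1 and released by mTOR signalling. Mammalian ribosomal protein genes also left many processed pseudogenes in the genome, near copies of the spliced messenger. A few have expressed paralogs whose proteins can take the place of the usual one in the ribosome.

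The initiator of these promoters is a short TCT motif, which sets the start of transcription at the first C of the pyrimidine run. Promoter stretches are shown because the members were considered as 1 set and several of them moved together. The RefSeq promoter table (GRCm38.p6) held 63 of the 85 members. The motif was searched as CTTT with a pyrimidine before it and a pyrimidine after it, on both strands, from 50 bases before to 50 bases after each annotated start. On the strand of the gene it was present in 43 of 73 windows of ribosomal protein members (58.9%), against 4413 of 32851 windows of all genes in the table (13.4%). On the opposite strand it was present in 5 windows (6.85%) against 13.1% of all windows. A match may overlap another, and a window without one lacks only these letters. The stretches below run 5′ to 3′ from 35 bases before the annotated start to 20 bases from it, with matches in capitals. Of the 63 members with a promoter, 17 have a match within 10 bases of the start, and the first group was chosen from these. They are Rps6 of the small subunit, whose protein is the S6 kinase substrate, Rpl28 and Rpl35 of the large subunit, the stalk gene Rplp2, and Rpl12, which is described below.
Rps6, chr4:86857348-86857402, minus strand: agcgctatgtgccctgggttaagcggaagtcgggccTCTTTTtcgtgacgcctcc
Rpl28, chr7:4792930-4792984, plus strand: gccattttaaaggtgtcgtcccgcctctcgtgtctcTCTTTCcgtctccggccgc
Rpl35, chr2:39005112-39005166, minus strand: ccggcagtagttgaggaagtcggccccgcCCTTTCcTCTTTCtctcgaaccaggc
Rplp2, chr7:141447616-141447670, plus strand: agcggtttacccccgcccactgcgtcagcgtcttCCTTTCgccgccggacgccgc
Rpl12, chr2:32961677-32961731, plus strand: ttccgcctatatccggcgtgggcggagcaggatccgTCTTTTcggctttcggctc
The second group sets paralog pairs side by side, with Rpl22l1 printed alone at the end. Rps27 has a match at its start and Rps27l has none in the stretch shown, whereas Rpl39l has a match just before its start and Rpl39 has none in this stretch. Rpl22l1 has no match. Its parent gene Rpl22, not printed here, has a match with its first base at -33 from 1 annotated start and none around another.
Rps27, chr3:90213629-90213683, minus strand: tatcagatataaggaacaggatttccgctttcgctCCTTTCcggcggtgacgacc
Rps27l, chr9:66946051-66946105, plus strand: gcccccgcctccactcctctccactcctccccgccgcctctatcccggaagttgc
Rpl39, chrX:37085203-37085257, minus strand: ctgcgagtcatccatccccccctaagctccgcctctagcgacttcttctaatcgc
Rpl39l, chr16:10170193-10170247, plus strand: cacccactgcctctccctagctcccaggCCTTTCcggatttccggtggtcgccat
Rpl22l1, chr3:28805473-28805527, plus strand: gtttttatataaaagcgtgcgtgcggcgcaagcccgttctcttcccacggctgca

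The messengers of proteins that are needed in nearly equal numbers spanned more than 3 orders of magnitude in these files. Levels are given in TPM (transcript abundance corrected for length and scaled to a fixed total per library), as means over all 20 libraries. Among the highest members were Rpl41 at 5628 TPM, Rpl4 at 5507, the stalk gene Rplp1 at 5389 and Rpl32 at 5281. The lowest of the 82 members that passed the filter on low values (1 TPM or more in 5 or more libraries) were Rpl30 at 2.42 TPM, Rpl34 at 3.56, the paralog Rpl39l at 4.56, Rps27 at 6.36, Rps4y2 at 11.4 and Rpl24 at 16.4. Rpl26, a core protein of the large subunit, and Rpl10l, a paralog known from the testis, were listed at 0 in every library, and Rpl3l, the striated muscle paralog of Rpl3, was above 0 in 1 library. Of the 75 core subunit and stalk genes that passed the filter, 23 lay above 1000 TPM and 26 under 100 TPM.

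The low core members included genes whose products every ribosome needs. Rps6 lay at 78.4, 63.3, 65.2, 58.2 and 66.6 TPM in control centroblasts 1 to 5. Rpl5 and Rpl11, which form the 5S particle with 5S ribosomal RNA, lay at 48.2 and 46.5 TPM over all libraries. Rps27 lay between 4.27 and 9.28 TPM in control centroblasts and between 4.18 and 11.1 in control centrocytes, so its groups overlapped. Rps6, Rpl5 and Rpl11 thus stood near the level of Rps19bp1 (57.6 TPM), a nucleolar regulator that is no part of the ribosome.

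Levels went with how much of a gene's coding sequence other annotated genes repeat. For each member the coding sequence was divided into all stretches of 50 bases, and the share that also occurs in a transcript of another GENCODE gene (release M21, GRCm38) was counted. Over the 75 core members the level fell with this share (Spearman rho -0.709, given as a description, since all points come from the same libraries), while its rho with coding length was 0.170. The 10 genes with under 50% of their stretches shared had a median of 4733 TPM (652 to 5507). Medians were 2403 TPM for the 6 genes at 50 to under 75%, and 663 TPM for the 30 genes at 75 to under 100%. The 29 genes with 100% shared had a median of 54.5 TPM (6.36 to 5628).

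Single genes show the pattern and its exceptions. Rpl8, with 8.73% shared, lay at 4459 TPM, and Rps3, with 8.09% shared, at 2676 TPM. Rps6, Rpl5 and Rpl11 had 100% shared, with 14, 14 and 10 other genes holding a stretch of theirs, all of them annotated as pseudogenes. Rpl41 was an exception at 100% shared and the highest level, and its coding sequence has 75 bases. Rpl30 and Rpl34 were exceptions in the other direction, at 83.1% and 72.2% shared and under 4 TPM. How reads that match several genes were counted is not stated in any source used here. Levels of members with shared sequence are therefore uncertain, and the part of shared sequence in them was not tested.

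**Figure D1:**
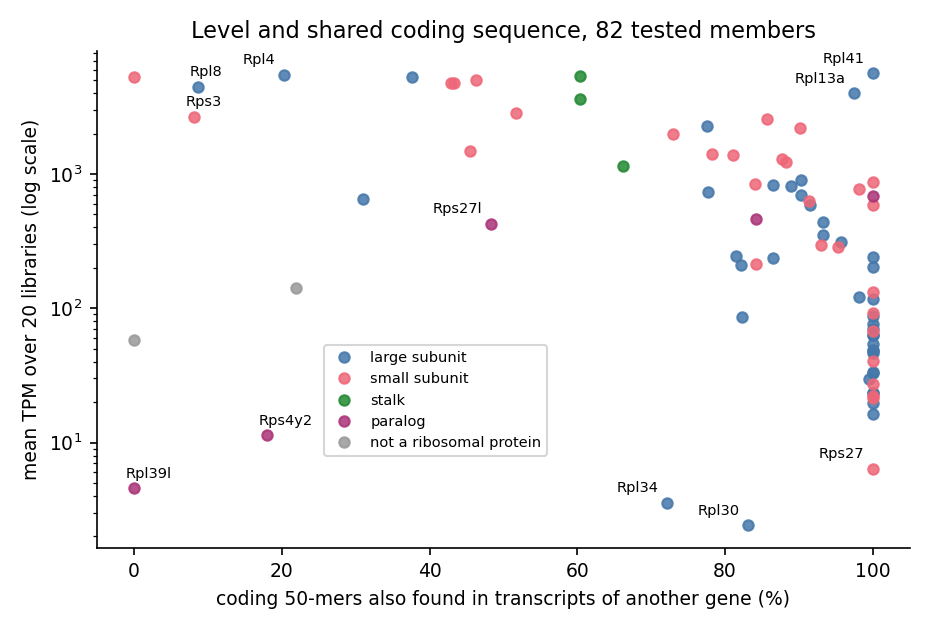
Mean TPM over 20 libraries (log axis) against the percentage of a gene's coding 50-base stretches that also occur in transcripts of another annotated gene, 1 point for each of the 82 members that passed the filter, coloured by role. Genes at 100% lie mostly under 1000 TPM, while Rpl41 stands at 5628 and Rpl8, with 8.73% shared, at 4459.

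The share of all TPM held by the 85 members was 9.74%, 8.36%, 8.996%, 8.31% and 9.32% in control centroblasts 1 to 5 (mean 8.94% ± 0.617 SD). In L252P centroblasts 1 to 5 it was 8.61%, 9.68%, 9.97%, 12.4% and 16.9% (mean 11.5% ± 3.34 SD). Libraries 4 and 5 of this group lay above all the others, and libraries 1 to 3 lay between 8.61% and 9.97%, in the range of the controls and slightly above it. In control centrocytes 1 to 5 the share was 8.56%, 7.88%, 7.74%, 8.11% and 8.04% (mean 8.07% ± 0.312 SD). In L252P centrocytes 1 to 5 it was 8.23%, 7.65%, 7.33%, 7.99% and 8.79% (mean 7.998% ± 0.559 SD). The centrocyte groups overlapped each other, and each reached into the range of control centroblasts. As TPM are shares of a fixed total, a change in the amount of these messengers per cell cannot be told apart from a change in the rest of the transcriptome, and fewer cells of a type cannot be told apart from less RNA per cell.

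Sums within the set kept similar proportions across libraries. The 11 highest genes held 57.5% to 59.7% of the members' TPM in the 18 libraries other than L252P centroblasts 4 and 5, and 59.0% and 60.5% in those. The ratio of summed TPM of small subunit genes to large subunit genes was 1.19 to 1.24 in the 18 libraries and 1.23 and 1.25 in the other two. The stalk genes held 0.815% to 1.13% of all TPM in the 18 libraries and 1.20% and 1.79% in L252P centroblasts 4 and 5.

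L252P centroblasts 4 and 5 also differed outside the set. Other genes with transcripts as long as those of most members (486 to 1355 bases, 5443 genes) held 27.4% and 29.5% of their TPM, against 22.3% to 25.5% in the other 18 libraries. Within the sum of members and these genes, members made up 31.2% and 36.5%, against 24.8% to 28.2%. These libraries had 12895 and 12719 genes above 0, against 13053 to 14092. Over the 82 members tested, the log2 ratio to the mean of control centroblasts had a median of 0.38 in library 4 and 0.74 in library 5, against 0.18 in library 3. Among the 75 core members, the Spearman rho of this ratio with coding length was -0.305 in library 4 and -0.480 in library 5, against -0.449 in library 3. The shortest, Rpl41, stood at 8889 and 14870.3 TPM in libraries 4 and 5 and at 4740 to 5638 in control centroblasts, while Rpl4, with the longest coding sequence of the 75, stood at 6379 and 5848 against 4699 to 6181. The summed TPM of the 5 germinal centre markers was lowest among centroblasts in these libraries, at 1652 and 1295, against 1945 to 2337 in control centroblasts, 1901 to 2212 in L252P centroblasts 1 to 3 and 1448 to 1807 in centrocytes. The parts of transcript length and of other cells in the share of these libraries were not tested. Most counts of called members and most fold changes of named genes that use both libraries are given below also without them.

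**Figure D2:**
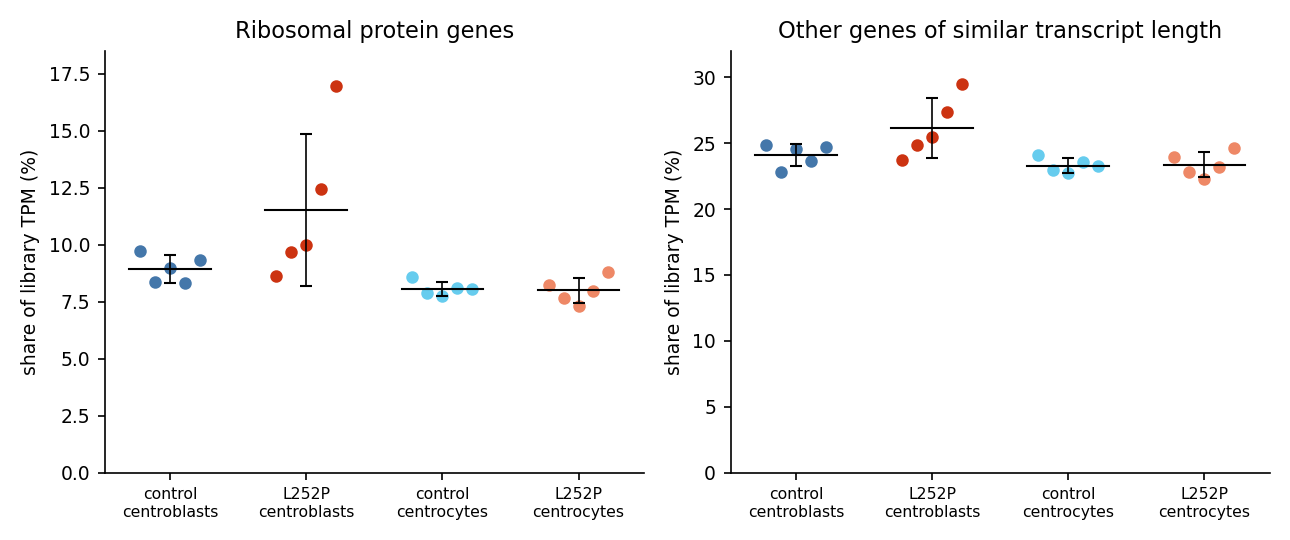
Share of TPM per library (percent) held by the 85 ribosomal protein members (left) and by 5443 other genes of similar transcript length (right), points in order of library number, lines and bars for the mean and SD of 5 libraries. L252P centroblasts 4 and 5 stand above the other 18 libraries in both panels, at 12.4% and 16.9% on the left.

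**Figure D3:**
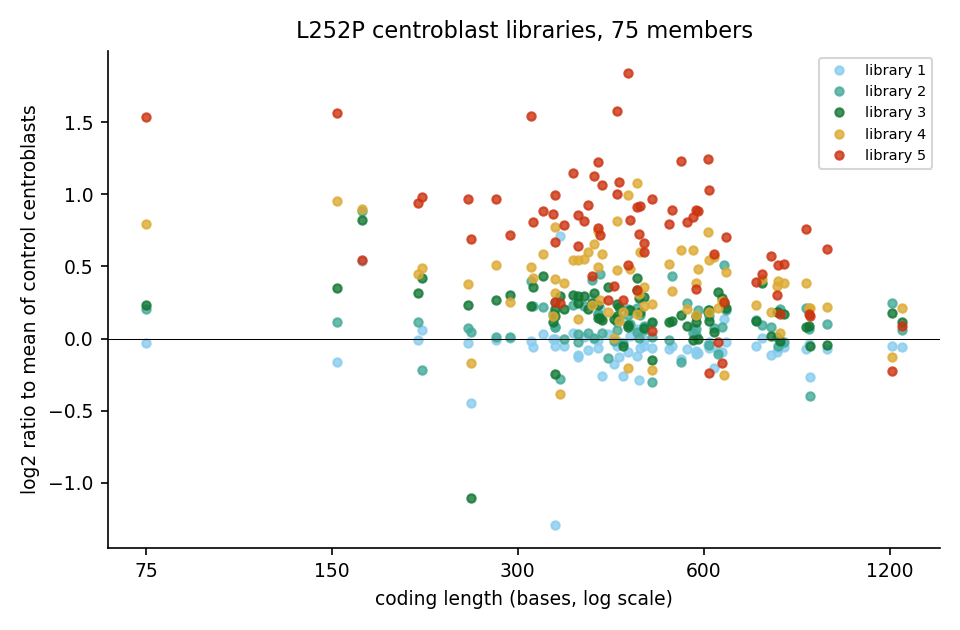
Log2 ratio of each of 75 core members to its mean in control centroblasts (TPM + 1 in both) against coding length in bases (log axis), coloured by L252P centroblast library. Library 5 lies highest, with a median of 0.74 over all 82 members tested, against 0.38 in library 4.

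The genotype comparison asks whether the L252P allele goes with a different level of these messengers. In centroblasts 1 of the 82 members tested, the paralog Rpl39l, was higher in L252P libraries and none was lower, where 0.905% of all 11386 genes tested were called higher and 3.38% lower (limma on log2(TPM + 1), Benjamini-Hochberg adjusted p under 0.05). The fold change was above 0 for 77 members, with a median of 0.27 on the log2 scale against -0.16 over all genes tested, and 44 members were higher at an unadjusted p under 0.05, as were 5.2% of all genes. Without L252P centroblasts 4 and 5 no member was called, where 2.13% of all genes were called higher and 1.44% lower, and the median was 0.09 against -0.02. L252P centroblast 1, the library of that group with the lowest share, bore on the count as well. Without it 46 members were called higher, where 3.71% of all genes were called higher and 23.5% lower. Without library 2 it was 9 members, against 1.02% and 6.26% of all genes.

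In centrocytes no member was called, where 1.2% of all genes tested were. The median log2 fold change was -0.01 against 0.02 over all genes, and 38 of 82 members lay above 0. At an unadjusted p under 0.05 there were 2 members, Rpl39l and Rps12 (log2 fold change 0.30, limma adjusted p = 0.229), both higher, where 6.25% of all genes were higher at this level. Rps12 has 100% of its coding stretches shared with other genes. The difference of the genotype effect between the sorts was called for no member, against 0.0176% of all genes. It lay below 0 for 76 members (median -0.28 against 0.18 over all genes), and 21 of these had an unadjusted p under 0.05, as had 1.89% of all genes in this direction and 9.72% in the other. Without L252P centroblasts 4 and 5 that median was -0.08 against 0.04.

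Rpl39l, the paralog of the exit tunnel protein gene Rpl39, is encoded on chromosome 16 (10170226 to 10174911, plus strand) and shares no coding stretch of 50 bases with another gene. It lay at 0, 1.21, 0.494, 0 and 1.11 TPM in control centroblasts 1 to 5, and at 4.21, 11.8, 1.41, 24.9 and 7.17 TPM in L252P centroblasts 1 to 5. All 5 L252P values lay above all 5 controls, with library 3 close to them. The log2 fold change was 2.45 ± 0.56 (SE, limma adjusted p = 0.0225), and it understates the ratio of such low values. Rpl39l passed the filter on low values through its L252P libraries. In centrocytes it lay at 0.747, 0.547, 0.553, 0 and 3.13 TPM in controls and at 3.57, 8.83, 1.08, 14.1 and 6.29 TPM in L252P libraries. There library 5 of the controls lay above library 3 of the L252P group, and the difference did not pass (1.84 ± 0.56, limma adjusted p = 0.147). The library numbers stood in the same order in both L252P sorts, with 4 highest and 3 lowest. The centroblast call was lost without L252P centroblast 4 (log2 fold change 2.03, adjusted p = 0.0519), without control centroblast 4 (2.31, adjusted p = 0.0530), without L252P centroblasts 4 and 5 (1.89, adjusted p = 0.111) and in a fit of the centroblast libraries alone (2.45, adjusted p = 0.0765).

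Markers of red cells moved with genotype in the same libraries. The summed TPM of the 5 erythroid markers in the files was 22.5 to 269 in control centroblasts and 323 to 804 in L252P centroblasts, and 40.9 to 271 against 232 to 574 in centrocytes. Hba-a1 and Hba-a2 were listed at 0 in every library and Beta-s carried most of the sum. The highest erythroid sum among L252P centroblasts, in library 3, came with the lowest Rpl39l of that group. The part of red cell RNA in the Rpl39l difference was not tested. The B cell markers summed to 9284 to 12982 TPM in all libraries, T cell markers to at most 5.10 and neutrophil markers to at most 5.46.

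Rps29, a zinc-binding protein of the small subunit, was the other member whose centroblast groups did not overlap. It lay at 22.2, 14.3, 15.3, 15.2 and 13.2 TPM in controls 1 to 5 and at 23.8, 30.4, 29.1, 30.7 and 23.9 TPM in L252P libraries 1 to 5, with control 1 just below the lowest L252P value. The difference missed the threshold (log2 fold change 0.76 ± 0.23, limma adjusted p = 0.0589), and it was 0.77 without L252P centroblasts 4 and 5 (adjusted p = 0.158). Groups stood apart in this direction for 0.755% of all genes tested. Rps29 was picked for this after its values were seen. It has 100% of its coding stretches shared with 7 other genes, and the part of shared sequence in its difference was not tested.

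Centrocytes were compared with centroblasts in each genotype to show how the set differs between the light and the dark zone. In control mice 4 members were higher in centrocytes (Rpl10a, Rpl12, Rpl10, Rps27a) and 3 were lower (Rpl8, Rplp0, Rpl14), where 21.2% of all genes tested were called higher and 9.48% lower. The members' median log2 fold change was -0.11 against 0.14 over all genes, and 59 of 82 lay below 0. In L252P mice the same 4 members were higher and 51 were lower, against 48.8% and 12.6% of all genes, with a median of -0.38 against 0.34. The lower calls held 22 of 42 large subunit genes, 23 of 30 small subunit genes and all 3 stalk genes. Without L252P centroblasts 4 and 5 the counts in L252P mice were 5 higher, with Rpl23a added, and 36 lower (median -0.19 against 0.17), against 35.8% of all genes called higher and 14.9% called lower. In controls, whose own libraries were all kept and whose shared spread estimate became smaller, they were 6 higher, with Rpl23a and Rps12 added, and 20 lower, against 33.3% and 14.3% of all genes. In controls the groups of 5 did not overlap for 2 members higher in centrocytes and 6 lower, where this held for 17% and 9.51% of all genes. In L252P mice they did not overlap for 2 higher and 19 lower members, against 28.7% and 7.91%. With L252P centroblasts 1 to 3 alone these were again 2 and 19 members, against 30.2% and 14.1%. The control and L252P comparisons share no libraries. Their fold changes had a Spearman rho of 0.756 over the 82 members, and of 0.811 without L252P centroblasts 4 and 5, given as descriptions.

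The lower members included in L252P mice Rpl14, Rps27l, Rps20, Rpl19 and Rps10. Rpl14 of the large subunit lay at 733, 855, 862, 1026 and 1212 TPM in L252P centroblasts 1 to 5 and at 647, 624, 608, 589.6 and 632 TPM in L252P centrocytes 1 to 5. The groups did not overlap, and the log2 fold change was -0.57 ± 0.10 (limma adjusted p = 4.62e-05). In the fit that omits L252P centroblasts 4 and 5, it was -0.39 ± 0.07 (adjusted p = 9.23e-05). In controls it lay at 824, 709, 723, 712 and 754 TPM in centroblasts and at 629, 639, 565, 647 and 605 TPM in centrocytes, again apart (-0.27 ± 0.10, limma adjusted p = 0.0367). Rps20 had a log2 fold change of -0.65, Rpl19 of -0.66 and Rps10 of -0.77 in L252P mice, each with a limma adjusted p of at most 2.88e-04 and groups that did not overlap. In controls the same genes stood at -0.27, -0.29 and -0.31, and none of these was called. With L252P centroblasts 4 and 5 left out, they stood at -0.44, -0.40 and -0.56 in L252P mice, each still called (adjusted p at most 0.00165). The control values did not move, and all 3 were then called with the smaller spread (adjusted p at most 0.0318).

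Rpl8, a large subunit protein near the peptidyl transferase centre, had 8.73% of its coding stretches shared. It lay at 4755, 4209, 4812, 4928 and 4947 TPM in control centroblasts 1 to 5 and at 4034, 3942, 3759.6, 3788 and 3947 TPM in control centrocytes 1 to 5, with no overlap (-0.28 ± 0.09, limma adjusted p = 0.0223). In L252P mice the log2 fold change was -0.43 ± 0.09 (adjusted p = 4.26e-04). The stalk base gene Rplp0 gave -0.29 in controls (adjusted p = 0.0260) and -0.44 in L252P mice (adjusted p = 5.95e-04). The stalk dimer genes Rplp1 and Rplp2 were lower in L252P mice (-0.37 and -0.66, adjusted p = 0.00843 and 7.27e-04), and stood at -0.11 and -0.27 in controls without passing. Rps6 was lower in L252P mice (-0.39, adjusted p = 0.00263), as was Rpl5 (-0.33, adjusted p = 0.0234), while Rpl11 stood at -0.28 (adjusted p = 0.0599). When L252P centroblasts 4 and 5 were left out, Rpl8 stood at -0.27, Rplp0 at -0.27, Rplp1 at -0.20, Rplp2 at -0.40 and Rps6 at -0.28 in L252P mice, and all 5 were still called (adjusted p at most 0.0279). The call of Rpl5 was lost (-0.16, adjusted p = 0.247), and Rpl11 stood at -0.10 (adjusted p = 0.414). In controls Rplp2 and Rpl5 were then called lower (adjusted p = 0.0240 and 0.0446).

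The 4 higher members went the other way in both genotypes. Rpl10a, the protein of the large subunit's L1 stalk (chromosome 17, 28328471 to 28331033), lay at 15.9, 16.1, 20.1, 19.02 and 23.9 TPM in control centroblasts 1 to 5 and at 31.4, 38.0, 46.9, 36.4 and 27.1 TPM in control centrocytes 1 to 5. All control centrocytes lay above all control centroblasts (log2 fold change 0.88 ± 0.19, limma adjusted p = 0.00153). In L252P mice it lay at 21.0, 27.5, 22.7, 15.8 and 22.9 TPM in centroblasts and at 35.2, 49.6, 62.2, 41.4 and 26.5 TPM in centrocytes, where centrocyte 5 fell below centroblast 2 (0.90 ± 0.19, adjusted p = 4.34e-04).

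Rpl12, which lies at the base of the stalk (chromosome 2, 32961559 to 32965345), was at 43.2, 49.0, 47.7, 40.9 and 47.2 TPM in control centroblasts and at 53.1, 67.4, 63.1, 63.4 and 68.4 TPM in control centrocytes. The groups were apart (0.46 ± 0.11, limma adjusted p = 0.00350). In L252P mice it was at 36.8 to 47.3 TPM in centroblasts and 54.6 to 77.2 TPM in centrocytes, also apart (0.68 ± 0.11, adjusted p = 3.30e-05). Rpl10, a late-joining protein next to the tRNA sites (X chromosome, 74270812 to 74273135), gave 0.44 in controls and 0.46 in L252P mice. Rps27a (chromosome 11, 29545846 to 29548109), which is made as a fusion with ubiquitin, gave 0.42 and 0.41. The groups of Rpl10 and Rps27a overlapped in controls, and those of Rps27a overlapped in L252P mice as well. After removal of L252P centroblasts 4 and 5, the L252P values were 0.78 for Rpl10a, 0.72 for Rpl12 and 0.44 each for Rpl10 and Rps27a, all still called (adjusted p at most 0.00654).

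These 4 genes are low and nearly all of their sequence is shared. Rpl10a had 99.5% of its coding stretches shared with 5 other genes, and Rpl10, Rpl12 and Rps27a had 100% shared with 15, 14 and 14 other genes. Of the 11 members with a fold change above 0 in both genotypes, all but Rpl7l1 (21.9%) had at least 99.5% shared. The fold change between sorts had a Spearman rho of 0.416 with the shared percentage in controls and 0.397 in L252P mice (75 core members, as descriptions). Among the 29 core members with 100% shared, the median was 0.00 in controls and -0.24 in L252P mice. Among the 10 with under 50% shared it was -0.16 and -0.49, with 9 called lower in L252P mice and none above 0 in either genotype. In the fit that omits L252P centroblasts 4 and 5, the L252P rho was 0.423 and the medians were -0.06 and -0.28, with 7 of the 10 called lower. In that fit 14 members had a fold change above 0 in both genotypes. The part of reads from other copies in these values was not tested.

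The division between the sorts also depended on how libraries were scaled, since the median of all genes stood at 0.14 in controls and 0.34 in L252P mice. With median-of-ratios scaling, which brings these medians to 0.01 and 0.02, only Rpl10a of the 4 kept its call in controls (0.74, adjusted p = 0.00320) and no member was called lower, against 18% of all genes called higher and 17.6% called lower. This scaling shifts the fold changes of members and of all genes by similar amounts. The members' own median therefore moved down as well, from -0.11 to -0.25 in controls and from -0.38 to -0.73 in L252P mice. That move follows from the scaling and says nothing further about the members. In L252P mice Rpl10a (0.56) and Rpl12 (0.33) were called higher and 65 members lower, against 29.7% and 28.8% of all genes. There Rpl10 stood at 0.11 (adjusted p = 0.450) and Rps27a at 0.06 (adjusted p = 0.709), and all 4 were above 0 in both genotypes. With this scaling and without L252P centroblasts 4 and 5, a combination chosen after seeing the data, 4 members were higher and 40 lower in controls, against 22.7% and 24.3% of all genes. In L252P mice these were 2 and 51, against 24.9% and 24.3%. Macrophage markers, 7 of 7 in the files, summed to 41.4 to 61.1 TPM in control centroblasts and 102 to 195 in control centrocytes, and plasma cell markers to 1378 to 1760 and 749 to 973. In L252P libraries these sums were 40.5 to 81.1 and 82.1 to 192, and 1504 to 1830 and 686 to 1206. Their part in the differences between sorts was not tested.

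**Figure D4:**
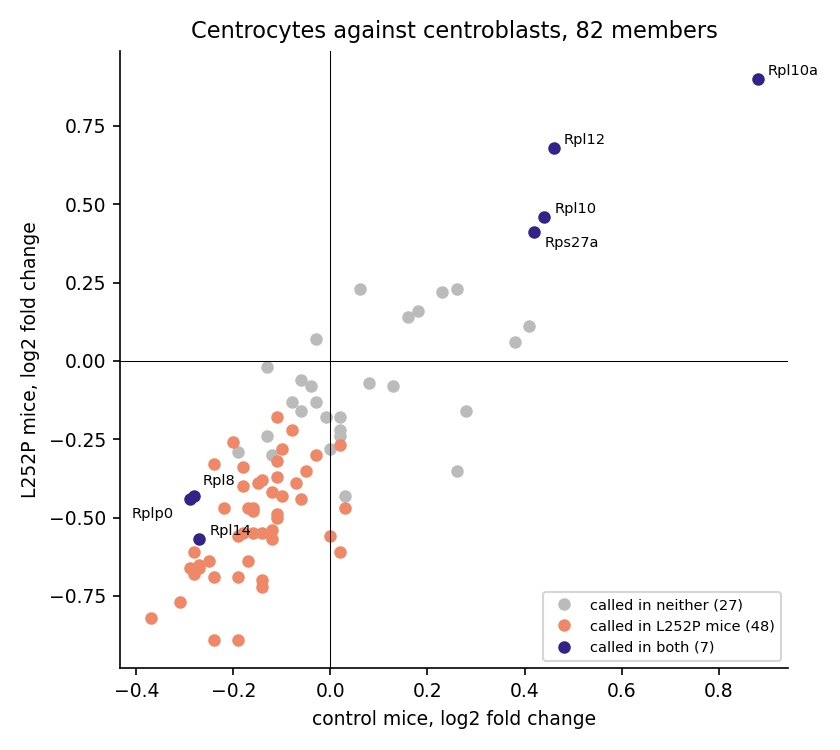
Log2 fold change of centrocytes against centroblasts in control mice (x axis) and in L252P mice (y axis) for the 82 members tested, coloured by whether limma called them. The 4 members called higher in both lie at the upper right, led by Rpl10a at 0.88 and 0.90, and most others lie at the lower left.

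Paralogs were compared within pairs, as the share of the paralog in the summed TPM of the pair, which does not move with the share of the whole set. Over 6 pairs and 4 comparisons, 24 exact permutation tests (two-sided, 5 libraries against 5, smallest p possible 0.00794) gave no Benjamini-Hochberg adjusted p under 0.05, the smallest being 0.0952. With this smallest p and 24 tests, a single pair that stood fully apart could not have passed alone. The lack of calls therefore does not show that the shares were equal. Unadjusted, 4 of the 24 stood under 0.05, each at an exact p of 0.0159. They concerned Rpl22l1 and Rpl39l in centrocytes by genotype, Rpl39l in centroblasts by genotype, and Rps27l between the sorts of L252P mice. With L252P centroblasts 4 and 5 left out, where 3 libraries against 5 allow no exact p under 0.0357, the last 2 stood at an exact permutation p of 0.0714 each, and the smallest adjusted p of the 24 was 0.190.

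Rpl22l1 is the paralog of Rpl22, and Rpl22 is known to repress it. Its share of the pair was 43.8% ± 1.55 (SD, n = 5) in control and 40.7% ± 4.62 in L252P centroblasts. When L252P centroblasts 4 and 5 were left out, the latter was 37.4% ± 1.70 (n = 3), apart from the controls at a difference of -6.39 percentage points (exact permutation p = 0.0357, adjusted p = 0.286). The share was 42.2% ± 1.26 in control and 38.4% ± 1.64 in L252P centrocytes. The centrocyte ranges met at their ends, 40.5% to 43.3% in controls and 36.7% to 40.8% in L252P libraries (exact permutation p = 0.0159, adjusted p = 0.0952). As a level, Rpl22l1 lay at 483, 364, 373, 448 and 421 TPM in control centrocytes 1 to 5 and at 377, 314, 288, 378 and 403 TPM in L252P centrocytes 1 to 5, and these overlapped. Rpl22l1 has 84.2% of its coding stretches shared with other genes, and Rpl22 has 31.0%. The part of shared sequence in the share of this pair was not tested.

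Rpl39l made up 0.0765% ± 0.0814 (SD, n = 5) of its pair in control and 0.829% ± 0.671 in L252P centroblasts (0.724% ± 0.641 without libraries 4 and 5), and 0.151% ± 0.186 in control and 1.08% ± 0.809 in L252P centrocytes. Rpl39 thus carried nearly all the TPM of the pair in each library. It lay at 644 to 927 TPM in control centroblasts and at 683, 826, 973, 1482 and 2255 TPM in L252P centroblasts 1 to 5. Libraries 4 and 5 were again the highest, and the log2 fold change of 0.58 did not pass (limma adjusted p = 0.0947), and it was 0.11 without them (adjusted p = 0.770).

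For 2 pairs the paralog took most of the TPM. Rps27l, a p53-inducible paralog, made up 98.6% ± 0.532 (SD, n = 5) of its pair with Rps27 in control and 99.1% ± 0.335 in L252P centroblasts, and 97.8% ± 0.974 and 98.2% ± 0.616 in centrocytes. Rps27l lay at 550, 382, 448, 385 and 407 TPM in control centroblasts and at 414, 505, 542, 675 and 893 TPM in L252P centroblasts. In L252P centrocytes it lay at 334, 343, 284, 337 and 361 TPM, below all the L252P centroblasts (-0.82 ± 0.15, limma adjusted p = 1.09e-04), and in controls the fold change was -0.37 without passing (adjusted p = 0.0649). After removal of L252P centroblasts 4 and 5, these were -0.55 (adjusted p = 7.02e-04) and -0.37 (adjusted p = 0.00559), both called. Rpl36al, a paralog that arose by retroposition, made up 95.0% to 95.9% of its pair with Rpl36a in the 4 groups. Rps27, Rpl36a and Rpl36al have 100% of their coding stretches shared with other genes, and Rps27l has 48.3%.

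The remaining pairs leaned to the parent gene. Rpl7l1, a nucleolar relative of Rpl7 that acts in ribosome assembly, made up 5.04% to 6.56% of its pair as means of the 4 groups. Its share was 4.35% and 2.83% in L252P centroblasts 4 and 5, the libraries where the whole set held most TPM. In control centroblasts it was 5.24% to 6.50%. Rps4y2, which the current annotation lists as a transcribed pseudogene of the Rps4 family, made up 0.433% to 0.598% of its pair with Rps4x. It ranged from 2.78 to 27.9 TPM over the libraries.

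**Figure D5:**
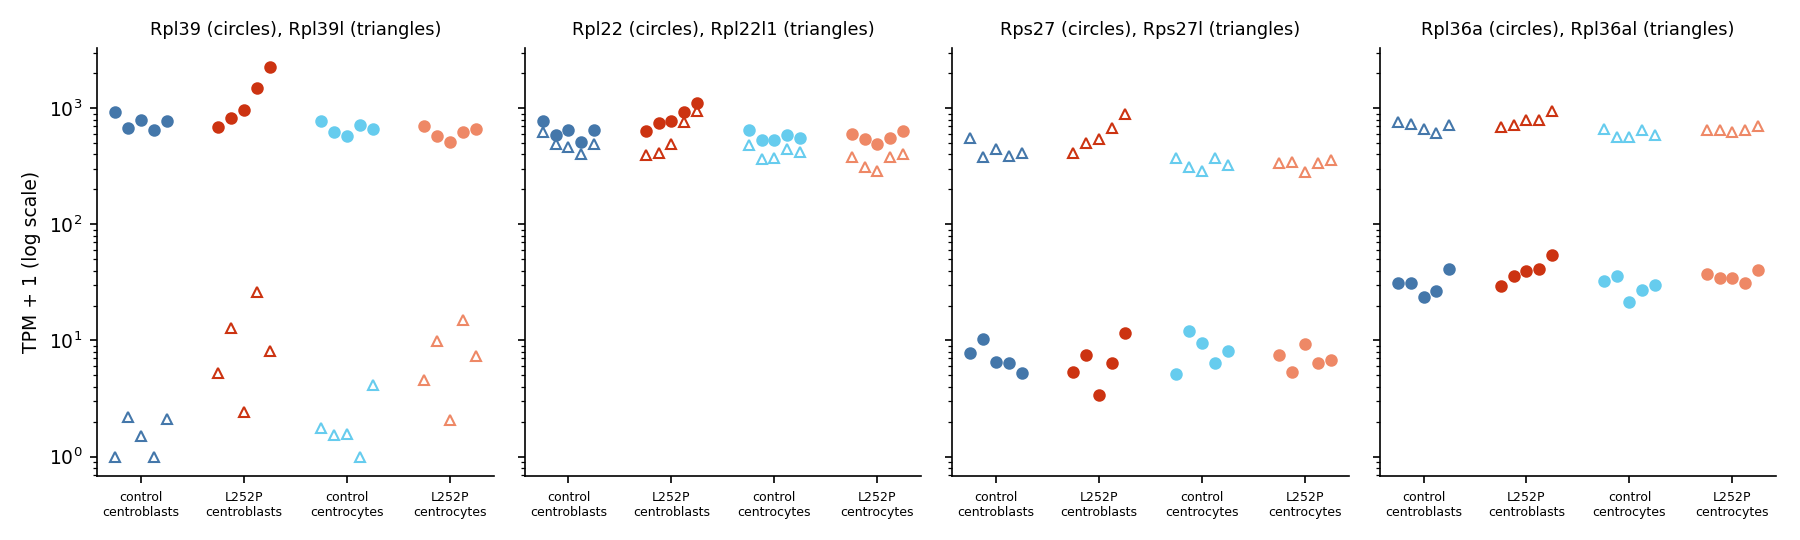
TPM + 1 (log axis) per library for 4 pairs, the parent gene as circles and the paralog as triangles, points in order of library number within each group. Rpl39l is at least 1.08 TPM in every L252P library and at 0 in 3 controls, while Rps27l and Rpl36al lie above their parent genes in all 20 libraries.

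Genes that act with the set were taken from 4 lists. The 4 ribosomal protein genes that the symbol rule does not reach, among them Rpsa, Fau and Gnb2l1 (now Rack1), were not called by genotype and not between sorts in controls (median -0.26 against 0.14 over all genes, of which 21.2% were called higher and 9.48% lower). In L252P mice all 4 were lower in centrocytes (median -0.50 against 0.34, with 48.8% of all genes higher and 12.6% lower). In the fit that omits L252P centroblasts 4 and 5, 3 of the 4 were lower in each genotype (medians -0.27 and -0.28), where 33.3% and 35.8% of all genes were higher and 14.3% and 14.9% lower (medians 0.14 and 0.17). Gnb2l1, the scaffold on the head of the small subunit, lay at 4749 ± 403 TPM (SD, n = 5) in control and 5486 ± 1112 in L252P centroblasts, and at 3971 ± 161 and 3879 ± 236 in centrocytes (-0.48, limma adjusted p = 4.07e-04 between the L252P sorts, and -0.28, adjusted p = 0.00305, without L252P centroblasts 4 and 5).

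Of 17 other translation genes whose messengers carry a 5′ TOP, 1 was higher and 2 were lower in control centrocytes (median -0.08 against 0.14), where 21.2% and 9.48% of all genes were. In L252P centrocytes 4 were higher and 6 lower (median -0.14 against 0.34), where 48.8% and 12.6% of all genes were. With L252P centroblasts 4 and 5 left out, controls had 3 higher and 5 lower, while L252P mice had 4 in each direction (median -0.08 in each). Of all genes, 33.3% were then called higher and 14.3% lower in controls, and 35.8% and 14.9% in L252P mice. Npm1, a nucleolar chaperone, was higher in both genotypes (0.64 and 0.61, limma adjusted p = 7.15e-05 and 4.33e-05). The elongation factor gene Eef2 (-0.29 and -0.18) and the initiation factor gene Eif3h (-0.41 and -0.77) were lower in both. In L252P mice the elongation factor gene Eef1b2 was also lower (-0.57), and the poly(A) binding protein gene Pabpc1 was higher (0.61). When L252P centroblasts 4 and 5 were left out, the L252P values were 0.69 for Npm1, -0.22 for Eef2, -0.48 for Eif3h, -0.36 for Eef1b2 and 0.37 for Pabpc1, all still called (adjusted p at most 0.0126).

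Of 19 regulators of TOP translation and S6 kinase signalling, 4 were higher in control centrocytes (all genes 21.2%) and 13 in L252P centrocytes (all genes 48.8%), and none was lower (all genes 9.48% and 12.6%). The medians were 0.13 and 0.46, against 0.14 and 0.34 over all genes. After removal of L252P centroblasts 4 and 5, 7 were higher in each genotype and none lower (medians 0.13 and 0.23), where 33.3% and 35.8% of all genes were higher and 14.3% and 14.9% lower. Pdcd4, a translation inhibitor that S6 kinase marks for destruction, rose by 1.74 and 2.17 on the log2 scale. Myc, which drives ribosome production and is known to rise in selected light zone cells, lay at 24.8 ± 4.24 TPM (SD, n = 5) in control centroblasts and 81.5 ± 8.31 in control centrocytes, and at 25.4 ± 9.14 and 94.4 ± 13.0 in L252P mice. Its log2 fold changes were 1.68 and 1.92 (limma adjusted p = 7.39e-07 and 4.90e-08). Larp1 was higher in L252P centrocytes (1.12 ± 0.22, adjusted p = 2.72e-04) and stood at 0.44 in controls without passing (adjusted p = 0.138). In the fit that omits L252P centroblasts 4 and 5, the L252P values were 2.02 for Pdcd4, 1.54 for Myc and 0.65 for Larp1, all still called (adjusted p at most 0.00196), and Larp1 was called in controls too (adjusted p = 0.0120). Myd88 was not called in any comparison.

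Of 17 chaperones and subunit assembly factors, 7 were higher and none lower in control centrocytes (median 0.21 against 0.14), where 21.2% and 9.48% of all genes were. In L252P centrocytes 12 were higher and 1 lower (median 0.43 against 0.34), where 48.8% and 12.6% of all genes were. With L252P centroblasts 4 and 5 left out, controls had 8 higher and 1 lower, while L252P mice had 9 higher and 1 lower (medians 0.21 and 0.25). The shares of all genes were then 33.3% higher and 14.3% lower in controls, and 35.8% and 14.9% in L252P mice. Ltv1 and Pno1 of small subunit assembly rose in both genotypes (Ltv1 by 0.48 and 0.70, Pno1 by 0.32 and 0.53), as did Heatr3, which helps import Rpl5 (0.45 and 0.93), and Rrp12 (0.55 and 1.11). The lower gene was Eif6, which keeps free large subunits from joining (-0.60, limma adjusted p = 4.92e-04). When L252P centroblasts 4 and 5 were left out, the L252P values were 0.64 for Ltv1, 0.47 for Pno1, 0.68 for Heatr3, 0.95 for Rrp12 and -0.34 for Eif6, all still called (adjusted p at most 0.00140). Eif6 was then called lower in controls as well (-0.33, adjusted p = 5.53e-04). No gene of the 4 lists was called by genotype in either sort or for the difference between them.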

How the data were processed

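The deposited values were TPM per gene symbol for each library, scaled by the authors to the same sum in every file. STAR and the build mm10 were used, per the submitters' processing notes, on libraries from a stranded mRNA kit, per the labels' protocols. The sources used here give no versions, gene annotation or counting tool. TPM keeps no read depth, so the depth is unknown and no counting interval is given. Libraries were grouped by their sort and genotype labels.

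The members and lists were chosen with earlier results of these data known. Differences were tested with limma 3.58.1 in R 4.3.3 (trend and robust) on log2(TPM + 1) with 4 group means over the 20 libraries, two-sided, with Benjamini-Hochberg adjustment over the 11386 genes that reached 1 TPM in 5 libraries or more. Errors of fold changes are SE. Paralog shares were compared with exact permutation tests (SciPy 1.17.1). The fit was tested on simulated data. Positions, lengths and shared 50-base stretches come from GENCODE M21 (GRCm38, the assembly of mm10), using for each member a principal transcript, and promoters from the RefSeq table. Named were the members of paralog pairs, the 6 highest and 6 lowest members, up to 6 called members in each direction per comparison, the stalk genes, Rpl5, Rpl11, Rps6, symbol matches that are no ribosomal proteins, up to 4 called genes per list, and Myd88, Myc and Larp1. Some genes that met this rule do not appear by name, and counts include them. Rpl3, Rpl3l and Rpl10l formed no testable pair. Alternatives were another pseudocount, filters, scalings, variance model, sets of libraries and a replicate block. The fit without L252P centroblasts 4 and 5 under median-of-ratios scaling was chosen after seeing the data.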

Additional observations from a re-analysis of the deposited data

Results flagged for a closer look

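Among 188 groups of 5 values (39 named members and the paralog shares), 13 held a library that stood far from the other 4, where chance gives about 1 in 20 groups. In control centroblasts this was library 2 each time, low for Rpl8 (4209 TPM), Rplp0 (3382 TPM), Rps19bp1 (53.18 TPM) and the share of Rps27l in its pair (97.63%). In L252P centroblasts it was library 5, high for Rplp1 (9589 TPM) and Rps10 (610.1 TPM), and the only library of the 20 with Rpl3l above 0 (0.2336 TPM). In control centrocytes library 5 was high for Rpl39l (3.131 TPM, 0.4751% of its pair) and low for Rpl34 (1.299 TPM), library 2 was high for Rpl24 (19.15 TPM) and library 1 was high for Rpl41 (4908 TPM). In L252P centrocytes library 3 was low for Rps6 (53.46 TPM).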

How the results depend on the processing

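Depth is unknown, which limits most the members of a few TPM (Rpl39l, Rpl30, Rpl34). Of the members by genotype in centroblasts, where 1 was called, 0 were called with the centroblast libraries alone, 0 without L252P centroblasts 4 and 5 (also with median-of-ratios scaling, an alternative chosen after seeing the data), and 4 with median-of-ratios scaling (Rpl39l, Rpl27, Rps12 and Rps29, the second named for this count). Leaving out 1 library at a time gave 0 to 46, with 46 without L252P centroblast 1, 9 without 2, 2 without 3, 4 without control centroblast 1, 2 without control centrocyte 1, and 0 without L252P centroblast 4 or control centroblast 4. Between the sorts in controls, where 7 were called, 26 were called with the compared libraries alone (6 higher, 20 lower), 26 without L252P centroblasts 4 and 5 (6 and 20), 44 with median-of-ratios scaling as well (4 and 40, against 22.7% and 24.3% of all genes) and 1, higher, with median-of-ratios scaling. Leaving out 1 library gave 4 to 18, with 18 without L252P centroblast 5 and 4 without control centrocyte 3. In L252P mice it gave 50 to 60 against 55. With the compared libraries alone, 4 were higher and 42 lower in L252P mice, against 40.9% and 10.6% of all genes. Scaling to genes of similar length gave 8 higher and 41 lower there, against 57.1% and 8.08% of all genes. The members' median was then -0.22 against 0.48 over all genes. Leaving out 1 library gave 0 in each case by genotype in centrocytes, for the difference and for paralog shares. For the shares, comparisons without the omitted library stayed at 5 against 5 libraries and the others had 4 against 5. In neither could a single test have passed alone, so this 0 does not show that the shares were equal. Median-of-ratios scaling moved the median of all genes from -0.16 to 0.01 by genotype in centroblasts and from 0.14 to 0.01 and from 0.34 to 0.02 between the sorts. Fold changes of Rpl39l between the sorts, never called, changed sign. In controls 0.26 became -0.04 without control centrocyte 5 (-0.04 to 0.47 over libraries left out). In L252P mice -0.35 became 0.08 without L252P centroblast 4, 0.06 without L252P centrocyte 3 (-0.78 to 0.08 over libraries left out), 0.22 without L252P centroblasts 4 and 5, and 0.09 with median-of-ratios scaling as well. With the genes outside the symbol rule added, the share of TPM was 9.57% in control centroblasts and 8.59% in control centrocytes.

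The replicate numbers were not used as pairs, since no label ties them to a mouse or day. Deviations from group means of same-numbered libraries correlated at -0.0168 to 0.259 in controls and -2.93e-05 to 0.269 in L252P mice, 8 of the 10 at 0.153 or more. Means for libraries of different numbers were -0.0404 and -0.0433. Since deviations sum to 0 within a group, these means are nearly fixed by the same-number values and are no separate comparison. Of 20 libraries, 13 correlated best with their own number in the other sort. A shared origin of some was not tested. With the replicate number as a block, 2 members were called by genotype in centroblasts and 12 between the sorts in controls, against 1 and 7, and 58 against 55 in L252P mice. Between the sorts the block was the number within a genotype. For the genotype comparison it joined same-numbered libraries of both genotypes, an arbitrary pairing that cannot stand for a shared mouse.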
